A study of Oryctolagus cuniculus with 20 samples.

Results

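The genes described here form the TGF-beta and BMP signalling family of the rabbit blood vessel wall, followed through the grafting of an artery into a vein. They were chosen by gene name alone: ligands (TGFB, BMP, GDF and INHB names), receptors (TGFBR, BMPR and ACVR names), SMADs, the ubiquitin ligases SMURF1 and SMURF2, and BAMBI, SKIL, FST, CHRD, CHRDL1, GREM1 and BMPER, with 1 further antagonist. The names matched 54 of 23669 genes. Of these 54 genes, 39 reached at least 1 FPKM in at least 4 libraries and were tested. FPKM is the number of fragments per kilobase of a transcript, relative to the sequencing depth. The 54 genes comprise 21 ligands, 11 receptors, 6 SMADs that carry the signal, 5 inhibitors at the membrane or inside the cell, 6 extracellular antagonists or binders, and 5 genes matched by name that play other parts.

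Ligands of the family bind paired type I and type II receptor kinases at the cell surface, and the activated type I receptor phosphorylates SMAD proteins, which enter the nucleus with SMAD4 and change transcription. TGF-beta and activin ligands act mainly through SMAD2 and SMAD3, and most BMP ligands through SMAD1, SMAD5 and SMAD9. In vessels the pathway is known for keeping smooth muscle in its contractile state, for driving matrix production after injury and, through ACVRL1 and ENG, for shaping endothelium. Antagonists outside the cell trap ligands, and inhibitors at the membrane and inside the cell, several of them induced by the pathway itself, dampen the signal. The roles given here are known mainly from human and mouse.

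Total RNA of rabbit (Oryctolagus cuniculus) vessels was sequenced in 20 paired-end libraries, 4 in each of 5 groups. A piece of common carotid artery was moved into a vein and collected as the graft on day 14 or on day 30. The unoperated common carotid artery of the other side was collected on the same days as the control, and unoperated external jugular vein made up the remaining group. No genotype, strain, age or drug is given in the labels, which call the libraries biological replicates without saying that each comes from its own animal, so p-values measure the spread between these samples. All 20 libraries carry the cell line tag HASMC and the same treatment tag, although the other labels describe rabbit tissue. Whole vessel pieces were used, and in such bulk samples fewer cells of a type and less RNA per cell cannot be told apart.

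The libraries were uneven in their spread. Over 1265 genes that averaged above 30 FPKM, the SD of log2 values had a median of 0.0733 in control day 14 and 0.324 in graft day 14. It was 0.198 in the controls and 0.189 in the grafts of day 30, and 0.135 in vein. Each control day 14 library lay close to a weighted mean of the other 3, with a median absolute log2 difference of 0.0731 to 0.0769. So did graft day 14 replicate 3 (0.0762), control day 30 replicate 2 (0.0840), graft day 30 replicate 4 (0.0818) and vein replicate 4 (0.0745), called mixture-like here. The remaining libraries stood at 0.0984 to 0.311. The member counts below are therefore also given with control day 14 counted as 1 sample and without those 4 libraries. Markers of 7 cell types or states were followed. Smooth muscle markers were abundant in the opposite artery and fell in the graft. The 7 tested summed to 9006 to 9519.9 FPKM in control libraries and 652 to 977 FPKM in the grafts of day 14. On day 30 they summed to 6610.4 to 9394 and 1498 to 1913 FPKM, and in vein to 4102 to 4433 FPKM, with SMTN listed at 0 in every library. The summed level of the 8 endothelial markers tested moved the other way, from 46.4 to 51.2 to 217 to 523 FPKM on day 14 and from 51.6 to 160.2 to 503 to 651 on day 30. It was 649 to 820.0 FPKM in vein, and PECAM1 was listed at 0 in all control libraries. The 5 macrophage markers tested summed to 8.05 to 9.77 FPKM in controls and 195 to 509 FPKM in grafts of day 14. On day 30 they summed to 4.84 to 24.7 and 118 to 269 FPKM, and in vein to 28.1 to 54.6 FPKM. CD68 and AIF1 were listed at 0 in all control and vein libraries, and LAPTM5 was listed at 0 throughout. Of the other lists, fibroblast and adventitia markers summed to 1735 to 1919 FPKM in controls and 3219.8 to 3981 FPKM in grafts of day 14. They summed to 1626 to 3284 and 4419 to 5169 FPKM on day 30, and to 3787 to 4679 FPKM in vein. Of the 8 tested, 3 were called higher and 2 lower in grafts of day 14, against 36.5% and 17.0% of all genes. On day 30, 4 were called higher and 0 lower, against 26.0% and 11.6%. Their median log2 change was 0.28 on day 14 and 0.69 on day 30, where all genes had 0.26 and 0.18. In controls and grafts, in that order, Schwann cell markers summed to 60.4 to 71.6 and 0.26 to 2.13 FPKM on day 14, 22.6 to 77.2 and 1.75 to 10.04 FPKM on day 30 and 35.5 to 47.7 FPKM in vein. In the same order, T cell markers summed to 0.20 to 0.38 and 10.4 to 15.2 FPKM on day 14, 0.10 to 2.72 and 5.95 to 21.02 FPKM on day 30 and 1.01 to 5.99 FPKM in vein. Cell cycle genes summed to 2.03 to 2.49 FPKM in controls and 30.1 to 59.2 FPKM in grafts on day 14, 3.12 to 5.45 and 15.9 to 26.1 FPKM on day 30 and 5.11 to 8.14 FPKM in vein. On day 14 the test called all 5 Schwann cell markers tested lower and all 4 T cell markers and all 5 cell cycle genes tested higher in the graft, and their part in the results below was not tested.

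In the graft, the inhibitors BAMBI, SKIL and SMURF1 fell on both days. The type II receptor TGFBR2 and the endothelial type I receptor ACVRL1 rose on both days, and TGFBR3, BMPR1A and the ligand BMP3 fell. The ligands BMP4, BMP6, GDF7 and GDF10 and the antagonist FST were lower on day 14 and did not pass the test on day 30. A test of the difference between the days passed for FST and for none of these ligands. On day 14 the test (limma on log2(FPKM + 1), adjusted p below 0.05 over 8657 genes) called 21 of the 39 members tested, 5 higher and 16 lower in the graft. It called 53.5% of all genes tested, 36.5% higher and 17.0% lower. The median log2 change was -0.50 over the members tested and 0.26 over all genes tested. The graft and control libraries of day 14 did not overlap for 5 members that were higher and 16 that were lower, against 33.9% and 16.1% of all genes. With control day 14 as 1 sample the test called 10 members, 3 higher and 7 lower (4 and 11 at an unadjusted p below 0.05), and without the 4 mixture-like libraries 19, 5 higher and 14 lower. On day 30 it called 15 members, 6 higher and 9 lower, against 37.6% of all genes, 26.0% higher and 11.6% lower, with median log2 changes of -0.12 and 0.18. With control day 14 as 1 sample it called 15 again on day 30, 6 higher and 9 lower, without the 4 mixture-like libraries 13, 5 higher and 8 lower, and with both changes 10, 5 higher and 5 lower. Here 7 members were higher and 9 lower without overlap, against 23.3% and 11.2% of all genes. A gene that passed the filter only through a group where it is high had to differ. INHBB and SMAD1 do so on day 14 and BMP3 on both days, so these shares describe the tested members and not the family as a whole.

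**Figure D1:**
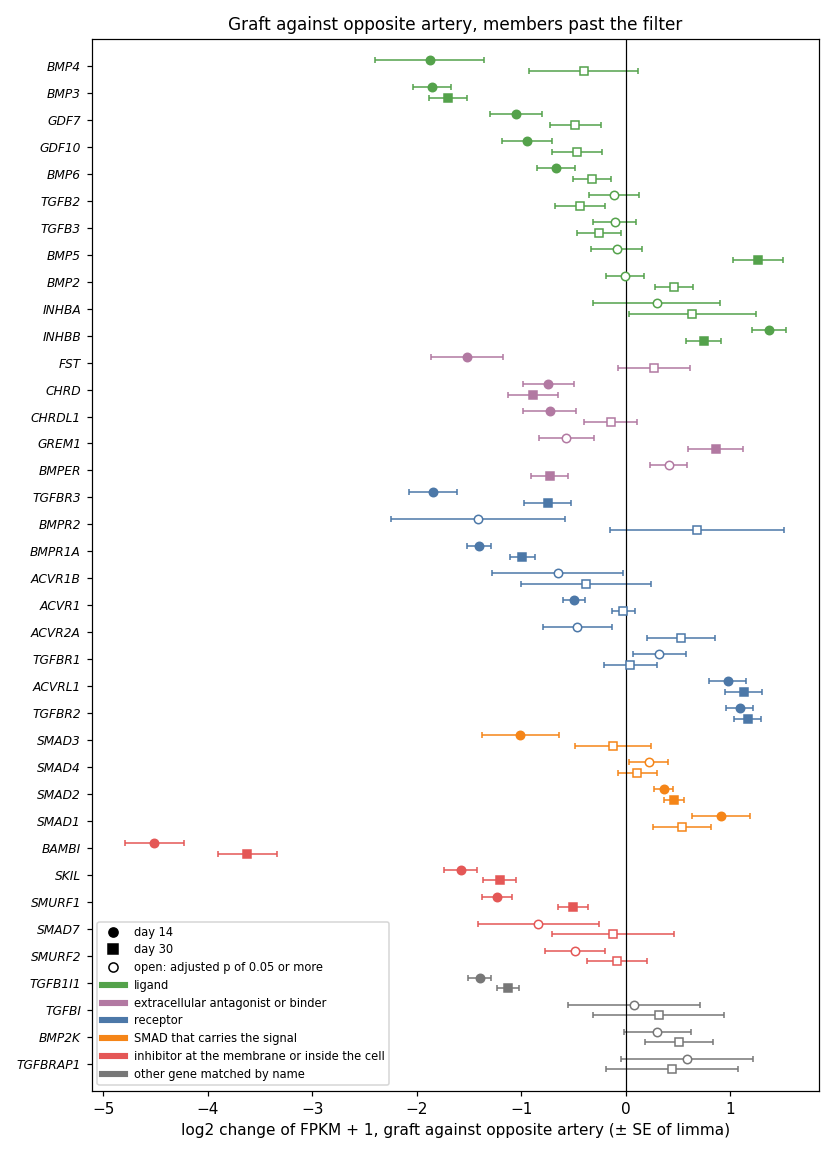
Log2 change of FPKM + 1 in the graft against the opposite artery (x axis, ± SE from limma) for 38 of the 39 members tested (rows), on day 14 (circles) and day 30 (squares), coloured by role. Filled symbols have an adjusted p below 0.05: BAMBI lies farthest to the left at -4.51 and -3.62, and TGFBR2, ACVRL1 and INHBB lie to the right of 0 on both days.

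The split of all calls depends on the scaling. Dividing each library by a median-of-ratios factor moved the median log2 change of all genes from 0.26 to 0.04 on day 14 and from 0.18 to 0.03 on day 30. Calls over all genes on day 14 went from 3161 higher and 1473 lower to 2369 higher and 2140 lower. Relative to that shift, the members called were 4 higher and 18 lower on day 14 and 6 higher and 10 lower on day 30. Quantile normalization gave 4 higher and 13 lower members on day 30. Under the median-of-ratios factor BAMBI changed by -4.78 on day 14, TGFBR2 by 0.80, ACVRL1 by 0.74 and BMPR1A by -1.69 on the log2 scale, all still called.

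BAMBI, a decoy receptor that has no kinase domain and dampens TGF-beta, activin and BMP signals, had the largest fall of any member. It stood at 107, 105, 112 and 105 FPKM in the control libraries of day 14 and at 2.10, 6.25, 3.64 and 3.86 FPKM in the grafts. On day 30 the controls held 106, 86.8, 89.6 and 119 FPKM and the grafts 14.1, 4.56, 5.43 and 7.18 FPKM. Every graft library was far below every control library on both days, and the controls of both days overlapped. The fall passed the test on day 14 (log2 change -4.51, SE 0.28, adjusted p = 6.63e-10) and on day 30 (log2 change -3.62, SE 0.28, adjusted p = 2.30e-08). In the ranking of all 8657 genes by log2 change, BAMBI was the 22nd lowest on both days.

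SKIL, a nuclear co-repressor that binds SMADs, fell as well. Its level was 21.7, 20.9, 21.2 and 22.3 FPKM in control day 14 and 5.31, 7.12, 6.92 and 6.97 FPKM in graft day 14, with no overlap (log2 change -1.58, SE 0.16, adjusted p = 2.07e-07). On day 30 it was 25.5, 28.9, 31.2 and 21.9 FPKM in control libraries and 16.6, 8.09, 9.39 and 11.5 FPKM in the grafts. Replicate 1 was the highest graft and still under the lowest control (log2 change -1.20, SE 0.16, adjusted p = 1.09e-05). SMURF1, a ubiquitin ligase that marks receptors and BMP SMADs for degradation, was at 9.09, 7.57, 9.90 and 8.99 FPKM in control day 14 and 3.22, 2.97, 3.87 and 2.79 FPKM in graft day 14 (log2 change -1.23, SE 0.15, adjusted p = 1.53e-06). On day 30 its control libraries held 6.78, 6.62, 7.22 and 8.05 FPKM and its grafts 3.97, 5, 6.20 and 4.10 FPKM. That was a smaller fall, again without overlap (log2 change -0.50, SE 0.15, adjusted p = 0.0115). That day 30 call was lost where control day 14 was 1 sample and the 4 mixture-like libraries were left out together (adjusted p = 0.0849, range over the alternatives 0.000444 to 0.0849).

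The other inhibitors did not pass. SMURF2, the partner ligase of SMURF1, was at 7.71, 6.73, 4.91 and 7.38 FPKM in control day 14 and 4.27, 1.50, 6.98 and 7.26 FPKM in graft day 14, and the groups overlapped (log2 change -0.49, SE 0.29, adjusted p = 0.167). SMAD7, the inhibitory SMAD that competes for the activated receptor, was at 4.37, 2.55, 4.41 and 7.20 FPKM in control day 14 and 2.34, 2.95, 2.31 and 0.91 FPKM in the grafts. Its day 30 libraries were widely spread, at 8.90, 0.76, 0 and 2.78 FPKM in control libraries and 3.55, 0, 2.51 and 1.93 FPKM in the grafts, with a listed 0 in each group. Neither day passed (adjusted p = 0.24 on day 14 and 0.894 on day 30). Thus 3 of the 5 inhibitors fell on each day and none rose. Over all genes, 17.0% fell and 36.5% rose on day 14, and 11.6% fell and 26.0% rose on day 30.

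TGFB1I1 (Hic-5), a focal adhesion adaptor of smooth muscle that TGF-beta induces, was among the most abundant of the matched genes. It was at 131, 131, 134 and 126 FPKM in control day 14 and 43.5, 60.9, 43.6 and 50.03 FPKM in graft day 14. Day 30 values were 124, 116, 111 and 131 FPKM in control libraries and 58.5, 50.3, 56.2 and 53.3 FPKM in the grafts. The groups were far apart on both days, with log2 changes of -1.40 ± 0.11, adjusted p = 9.19e-09 on day 14 and -1.12 ± 0.11, adjusted p = 2.90e-07 on day 30 (± SE, limma). All 7 smooth muscle markers tested were also called lower on both days, with a median log2 change of -3.91 on day 14 and -2.20 on day 30, and their part in the falls of BAMBI, SKIL, SMURF1 and TGFB1I1 was not tested.

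**Figure D2:**
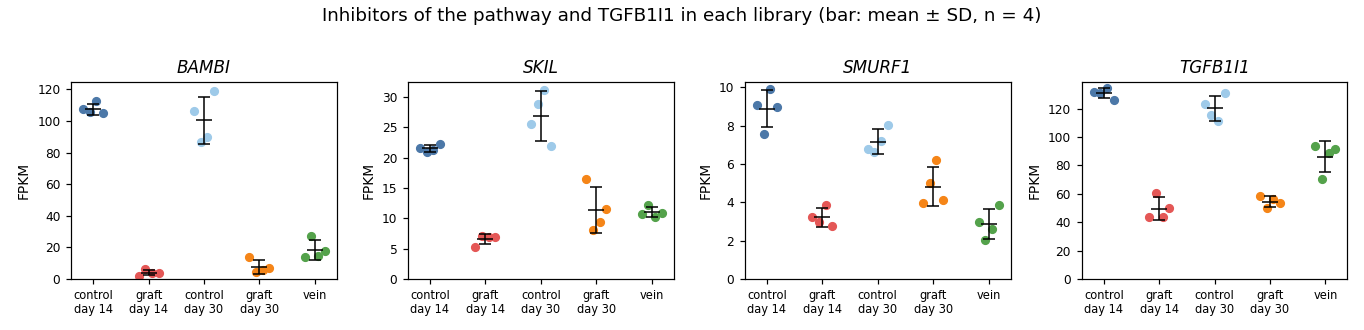
Level in FPKM (y axis) of the inhibitors BAMBI, SKIL and SMURF1 and of the adaptor TGFB1I1 in each of the 20 libraries (points) by group (x axis), with mean ± SD (n = 4). The graft libraries lie under the control libraries of the same day in all 4 panels, and BAMBI in the grafts does not exceed 14.1 FPKM.

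Among the receptors, TGFBR2, the type II receptor that binds TGF-beta and activates TGFBR1, rose in the graft. Its level was 34.7, 34.7, 35.9 and 34.5 FPKM in control day 14 and 92.8, 85.3, 65.7 and 62.8 FPKM in graft day 14 (log2 change 1.09, SE 0.13, adjusted p = 1.68e-06). Day 30 levels were 36.5, 40.7, 44.1 and 29.5 FPKM in control libraries and 82.9, 89.7, 80.9 and 87.0 FPKM in grafts (log2 change 1.17, SE 0.13, adjusted p = 1.80e-06). Each graft library held more than each control library, and graft day 30 was the more even of the graft groups. TGFBR1, its type I partner, was measured at 3.04 to 4.67 FPKM in controls and 4.02 to 6.52 FPKM in grafts of day 14. On day 30 it was at 2.28 to 8.05 and 2.50 to 5.22 FPKM, and it passed in no comparison.

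ACVRL1 (ALK1), the type I receptor through which endothelium reads GDF2 and BMP10, also rose. It was at 2.57, 2.34, 2.71 and 2.79 FPKM in control day 14 and 5.86, 8.60, 5.29 and 5.09 FPKM in graft day 14 (log2 change 0.98, SE 0.18, adjusted p = 0.000147). On day 30 the controls held 4.49, 3.57, 5.53 and 2.64 FPKM and the grafts 9.86, 9.83, 10 and 9.61 FPKM (log2 change 1.13, SE 0.18, adjusted p = 6.27e-05). The 4 grafts of day 30 were nearly equal, and no graft overlapped a control on either day. The day 14 call was lost with control day 14 as 1 sample and the 4 mixture-like libraries left out together (adjusted p = 0.0751, range 1.13e-07 to 0.0751). Of the 8 endothelial markers tested, 6 were called higher on day 14 and 7 on day 30, and their part in the rise of ACVRL1 was not tested. Its ligands GDF2 and BMP10 stayed at or below 0.08 FPKM in every library.

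TGFBR3 (betaglycan), the co-receptor that presents TGF-beta to TGFBR2 and binds inhibin, fell on day 14 from 11.7, 12.5, 11.8 and 11.2 FPKM to 4.65, 1.96, 2.53 and 1.73 FPKM (log2 change -1.84, SE 0.23, adjusted p = 2.34e-06). On day 30 the controls were at 10.2, 10.9, 15.9 and 9.38 FPKM and the grafts at 10.8, 5.10, 4.91 and 5.94 FPKM (log2 change -0.75, SE 0.23, adjusted p = 0.015). The day 14 groups were far apart, while on day 30 graft replicate 1 lay among the controls. The day 30 call was lost without control day 30 replicate 3, graft day 30 replicate 2 or graft day 30 replicate 3 (adjusted p = 0.0567, 0.0504 and 0.0512, range over all alternatives 4.16e-05 to 0.167). BMPR1A (ALK3), a type I receptor for BMP2 and BMP4, was at 35.1, 35.1, 35.6 and 34.2 FPKM in control day 14 and 14.9, 13.9, 11.9 and 10.1 FPKM in graft day 14 (log2 change -1.40, SE 0.12, adjusted p = 2.63e-08). Its day 30 libraries held 27.5, 23.2, 23.1 and 29.8 FPKM in control libraries and 12.3, 14.8, 10.7 and 12.3 FPKM in grafts (log2 change -0.99, SE 0.12, adjusted p = 3.64e-06). Its grafts of both days were near 10 to 15 FPKM, under every control.

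ACVR1 (ALK2), a type I receptor for several BMPs and for activin, fell on day 14, when the controls held 22.7, 22.4, 23.4 and 24 FPKM and the grafts 20.6, 15.8, 14.4 and 14.3 FPKM (log2 change -0.50, SE 0.11, adjusted p = 0.000883). Counting control day 14 as 1 sample ended this call (adjusted p = 0.0671, range 6.19e-09 to 0.21). On day 30 its groups overlapped (log2 change -0.02 ± 0.11, adjusted p = 0.894). The difference between the days did not pass for ACVR1 (0.47 ± 0.15, adjusted p = 0.0511, limma). BMPR2, the main type II receptor for BMPs, was at 5.20, 4.96, 5.95 and 4.82 FPKM in control day 14 and 0, 0, 3.63 and 5.47 FPKM in graft day 14. It was at 0, 2.42, 8.44 and 2.62 FPKM in controls and 9.74, 9.44, 0 and 5.96 FPKM in grafts of day 30, and at 4.84, 0, 0 and 1.46 FPKM in vein. A listed 0 can be a failed estimate, and no comparison of BMPR2 passed (adjusted p = 0.165 on day 14 and 0.563 on day 30). ACVR1B and ACVR2A, type I and type II receptors for activin, stayed at or below 3.98 FPKM and passed in no comparison either. Of the 9 receptors tested, 2 rose and 3 fell on day 14, against 36.5% and 17.0% of all genes. On day 30, 2 rose and 2 fell, against 26.0% and 11.6% of all genes.

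**Figure D3:**
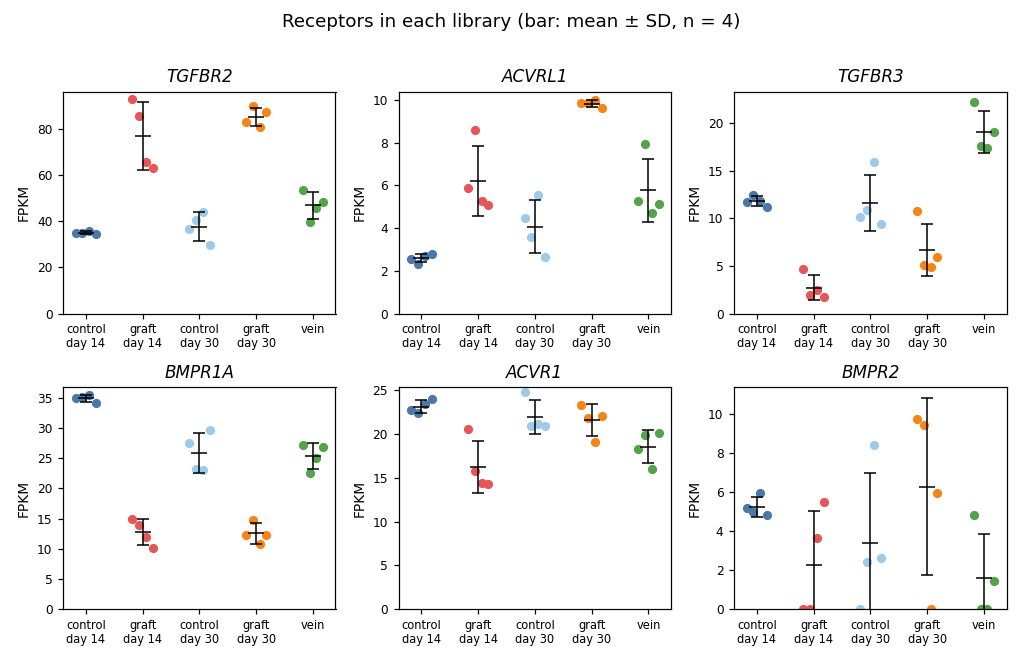
Level in FPKM (y axis) of 6 receptors in each of the 20 libraries (points) by group (x axis), with mean ± SD (n = 4, bars end at 0 where they would pass below it). TGFBR2 and ACVRL1 are higher in the grafts, TGFBR3 and BMPR1A lower, and BMPR2 holds libraries listed at 0 in each group but control day 14.

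Of the 4 tested SMADs that carry the signal, 2 were called higher and 1 lower on day 14, against 36.5% and 17.0% of all genes. On day 30, 1 was called higher and none lower, against 26.0% and 11.6% of all genes. SMAD2, a carrier of TGF-beta and activin signals and on average the most abundant of these 4, was at 20.8, 19.9, 19.3 and 22.4 FPKM in control day 14 and 26.3, 23.0, 28 and 30.2 FPKM in graft day 14. On day 30 it was at 19.9, 18.4, 19.0 and 18.9 FPKM in control libraries and 26.7, 30.9, 23.5 and 26.2 FPKM in the grafts. The grafts lay just above the controls on both days, with log2 changes of 0.36 ± 0.09, adjusted p = 0.00354 and 0.47 ± 0.09, adjusted p = 0.00076. The median of all genes was 0.26 on day 14, and SMAD2 lay close to it. Its day 14 change was 0.07 with the median-of-ratios factor (adjusted p = 0.451). It also missed the threshold under TPM and quantile scaling (0.13 and 0.12, adjusted p = 0.625 and 0.234, range over the alternatives 3.76e-07 to 0.625). The day 30 call was lost under TPM scaling (log2 change 0.22, adjusted p = 0.445, range 2.73e-06 to 0.445).

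SMAD3, the other carrier of TGF-beta and activin signals, was at 4.79, 8.02, 9.19 and 9.04 FPKM in control day 14 and 5.77, 1.48, 5.51 and 2 FPKM in graft day 14. The groups overlapped through control replicate 1 (log2 change -1.01, SE 0.36, adjusted p = 0.0267). This call was lost without control day 14 replicate 2, 3 or 4 or graft day 14 replicate 2 or 4 (adjusted p = 0.0541, 0.0674, 0.0659, 0.0990 and 0.0826, range over all alternatives 0.00454 to 0.241). SMAD1, a carrier of BMP signals, was measured at low levels: the controls of day 14 were listed at 0, 0, 0 and 0.25 FPKM and the grafts at 1.49, 1.04, 0.58 and 0.95 FPKM. The log2 change of SMAD1 was 0.91 ± 0.28, adjusted p = 0.0102, and it lost the threshold without graft day 14 replicates 1 and 2 (adjusted p = 0.0906, range 0.00219 to 0.176) and with control day 14 as 1 sample (0.176). SMAD1 reached 1 FPKM in 5 libraries, none of them a control, and without those of graft day 14 it would not have passed the filter, so its call is not independent of the filter. SMAD4, the shared partner of all these SMADs, was at 14.7 to 16.2 FPKM in control day 14 and 13.8 to 23.0 FPKM in graft day 14 and passed on neither day. SMAD9, a BMP SMAD, did not reach the filter, and SMAD5 was listed at 0 in every library.

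TGFB3 was the most abundant ligand in every group, and it did not pass in the graft. On day 14 it stood at 37.3, 34.4, 40.1 and 35.2 FPKM in control libraries and 30.3, 49.99, 30.5 and 29.3 FPKM in grafts. On day 30 it stood at 87.2, 55.1, 56.6 and 54.4 FPKM in control libraries and 62.0, 33.6, 61.2 and 56.5 FPKM in grafts. The groups overlapped on both days (log2 change -0.10 ± 0.21, adjusted p = 0.702 on day 14 and -0.25 ± 0.21, adjusted p = 0.367 on day 30). TGFB2 was scarce, at 0.80 to 1.64 FPKM in control day 14 and 0.82 to 1.12 in graft day 14, and passed in no comparison. TGFB1 was not analysed here.

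BMP3, an unusual BMP that opposes other BMPs in bone, fell from 4.01, 3.84, 3.56 and 4.18 FPKM in control day 14 to 0.86, 0.49, 0.10 and 0.10 FPKM in graft day 14 (log2 change -1.85, SE 0.18, adjusted p = 1.60e-07). On day 30 its controls held 6.58, 5.36, 5.11 and 6.08 FPKM and its grafts 0.88, 0.72, 1.78 and 1.06 FPKM (log2 change -1.70, SE 0.18, adjusted p = 1.06e-06). No graft reached the level of any control. BMP3 reached 1 FPKM in 10 libraries, among them every control. It passed the filter only through the groups where it is high, so its calls against the controls are given as a description. BMP4, a ligand that drives BMP SMADs, was at 6.19, 5.23, 6.03 and 2.81 FPKM in control day 14 and 1.39, 0, 1.19 and 0.26 FPKM in graft day 14 (log2 change -1.88, SE 0.52, adjusted p = 0.00554). Counting control day 14 as 1 sample ended the call (adjusted p = 0.130, range 7.67e-05 to 0.206). On day 30 the BMP4 grafts were spread over 0, 0.31, 8.17 and 2.59 FPKM around controls of 3.43, 2.42, 1.37 and 2.63 FPKM, and the test did not call them (adjusted p = 0.594). Whether the BMP4 change differed between days was tested too and did not pass (1.48 ± 0.74, adjusted p = 0.199).

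Of the scarcer ligands, BMP6 was lower on day 14, between 1.84 and 2.22 FPKM in controls and between 0.53 and 1.42 FPKM in grafts (log2 change -0.66 ± 0.18, adjusted p = 0.00508). GDF7, a BMP-like ligand, was lower too, between 1.27 and 1.48 FPKM in controls and between 0.05 and 0.39 FPKM in grafts (log2 change -1.05 ± 0.25, adjusted p = 0.00153). GDF10, a relative of BMP3, was lower too, between 0.79 and 1.63 FPKM in controls and between 0 and 0.31 FPKM in grafts (log2 change -0.95 ± 0.24, adjusted p = 0.00286). With control day 14 as 1 sample all 3 missed the threshold, at an adjusted p of 0.135, 0.0820 and 0.0915 (range over the alternatives 1.33e-06 to 0.284, 6.80e-07 to 0.189 and 2.36e-05 to 0.108). On day 30 BMP6, GDF7 and GDF10 had log2 changes of -0.32, -0.48 and -0.46 (adjusted p = 0.183, 0.142 and 0.146, limma). The GDF10 grafts of day 30 lay below every control, at 0.14 to 0.78 against 0.86 to 1.12 FPKM. The difference between the days passed for none of these ligands (0.34, 0.57 and 0.48, adjusted p = 0.418, 0.3015 and 0.380). INHBB, the beta B chain of activin B and inhibin B, was higher in the graft. The controls of day 14 held 0.08, 0.24, 0.18 and 0.09 FPKM and the grafts 2.53, 1.87, 1.69 and 1.85 FPKM. On day 30 its controls were at 0.27, 0.54, 0.73 and 0.05 FPKM and its grafts at 1.78, 1.54, 0.82 and 1.20 FPKM, again with each graft above each control. The log2 changes were 1.37 and 0.75. INHBB reached 1 FPKM in 7 libraries, all of them grafts, so it passed the filter only through the groups where it is high and its calls are given as a description.

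BMP5 rose on day 30, when its controls held 1.78, 0.18, 0.94 and 1.35 FPKM and its grafts 4.88, 3.73, 2.38 and 4.33 FPKM, with no overlap (log2 change 1.27, SE 0.24, adjusted p = 0.000427). On day 14 the BMP5 controls of 0.58, 1.21, 2.07 and 1.10 FPKM and grafts of 0.93, 1.46, 0.88 and 0.99 FPKM overlapped. BMP2 was at 5.78, 6.53, 8.81 and 7.83 FPKM in control day 30 and 9.30, 9.01, 13.0 and 10.1 FPKM in graft day 30, and although each graft exceeded each control, the test did not call it (log2 change 0.46, SE 0.18, adjusted p = 0.0534). INHBA, the beta A chain of activin A, was listed at 0 in at least 1 library of all groups except graft day 14 and reached 6.87 FPKM in a single graft of day 30. No direction can be read (adjusted p = 0.707 and 0.453). Of the 11 ligands tested, 1 was called higher (INHBB) and 5 lower on day 14, against 36.5% and 17.0% of all genes. On day 30, 2 were called higher (INHBB and BMP5) and 1 lower, against 26.0% and 11.6% of all genes.

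**Figure D4:**
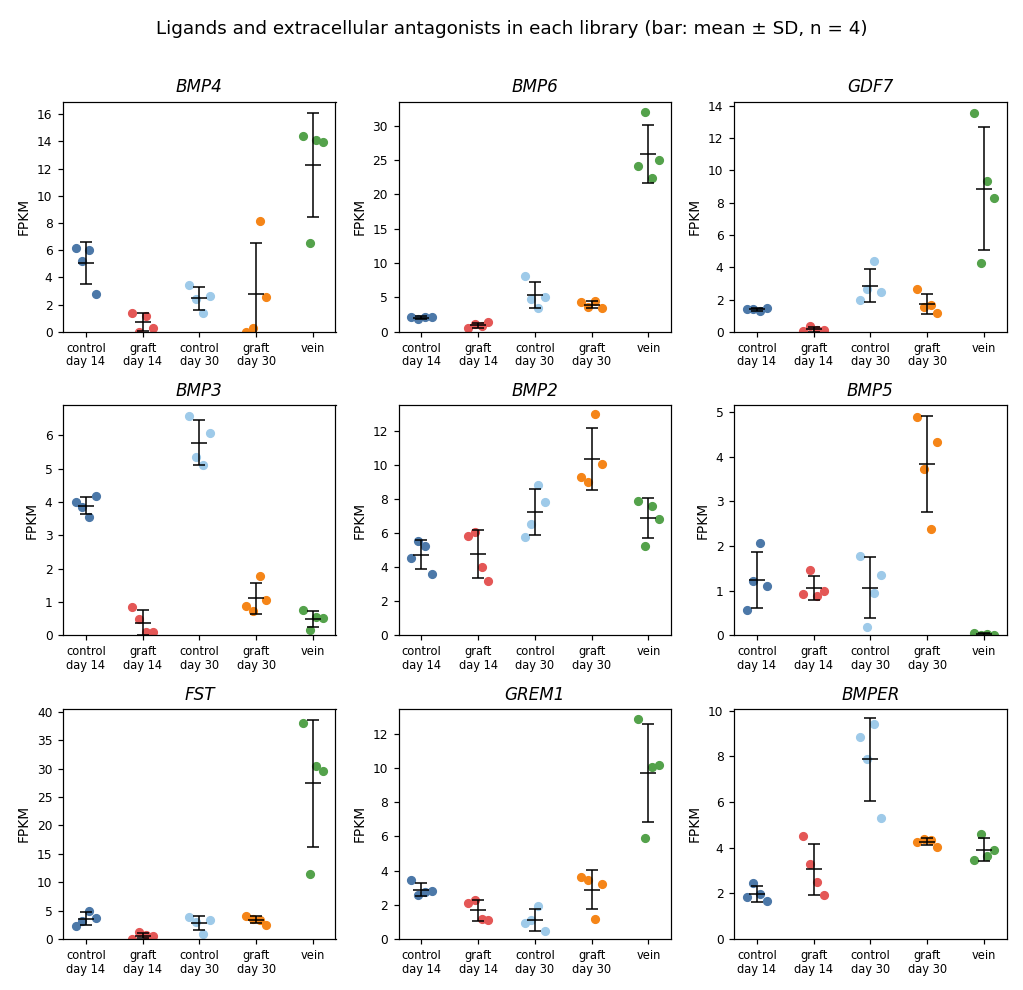
Level in FPKM (y axis) of 6 ligands and 3 extracellular antagonists in each of the 20 libraries (points) by group (x axis), with mean ± SD (n = 4, bars end at 0 where they would pass below it). BMP6, FST and GREM1 are highest in vein, BMP3 is highest in the control arteries, and BMP5 is highest in graft day 30.

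Of the extracellular antagonists, FST, CHRD and CHRDL1 were called lower on day 14, and CHRD, GREM1 and BMPER were called on day 30. FST (follistatin), which traps activins, was at 2.24, 3.18, 4.98 and 3.76 FPKM in control day 14 and 0, 1.17, 0.75 and 0.49 FPKM in graft day 14, with no overlap (log2 change -1.52, SE 0.34, adjusted p = 0.00113). The call was lost when control day 14 was 1 sample (adjusted p = 0.0583, range 3.97e-06 to 0.13). CHRD (chordin), which binds BMP2 and BMP4, was at 2.27, 3.52, 4.12 and 3.02 FPKM in control day 14 and 1.97, 1.72, 1.05 and 1.37 FPKM in graft day 14 (log2 change -0.74 ± 0.24, adjusted p = 0.0148). On day 30 the CHRD controls held 5.36, 4.14, 5.39 and 1.93 FPKM and the grafts 1.43, 1.72, 1.82 and 1.80 FPKM, a fall with no overlap (log2 change -0.89 ± 0.24, adjusted p = 0.00692). CHRDL1, a chordin relative, was listed at 0 in all 4 grafts of day 14 and at 0.65, 0.39, 0.78 and 0.84 FPKM in the controls (adjusted p = 0.021). The day 14 call of CHRD was lost without control day 14 replicate 3 (adjusted p = 0.0501, range 9.51e-06 to 0.379), and that of CHRDL1 without control day 14 replicate 4 (adjusted p = 0.0534, range 0.000177 to 0.351).

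GREM1 (gremlin), another trap for BMP2 and BMP4, was at 2.57 to 3.44 FPKM in control day 14 and 1.14 to 2.27 FPKM in graft day 14. These groups did not overlap, but the test did not call GREM1 (log2 change -0.57, SE 0.26, adjusted p = 0.0803). On day 30 it was at 0.95, 1.10, 1.95 and 0.45 FPKM in control libraries and 3.63, 3.44, 1.19 and 3.24 FPKM in grafts (log2 change 0.86, SE 0.26, adjusted p = 0.0156). A single graft, replicate 3, lay among the controls, and the call was lost without control day 30 replicate 4 (adjusted p = 0.0609) and under quantile normalization (0.135, range over all alternatives 6.76e-05 to 0.17). BMPER, which binds BMPs outside the cell and can raise or lower their activity, was at 8.83, 7.90, 9.42 and 5.31 FPKM in control day 30 and 4.24, 4.40, 4.35 and 4.04 FPKM in graft day 30. This fall had no overlap (log2 change -0.73, SE 0.18, adjusted p = 0.00318). The day 30 calls of CHRD and BMPER were lost with control day 14 as 1 sample and the 4 mixture-like libraries left out together (adjusted p = 0.0816 and 0.0818, ranges 0.000428 to 0.0816 and 7.86e-06 to 0.0818). Of the 6 antagonists tested, 3 fell and none rose on day 14, against 17.0% and 36.5% of all genes. On day 30, 1 rose and 2 fell, against 26.0% and 11.6% of all genes.

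The graft effect differed between the days for 6 of the 39 members, 5 with a higher log2 change on day 30. Of all genes 12.9% differed, 5.38% higher and 7.57% lower. The median-of-ratios factor turned the split over all genes from 466 higher and 655 lower to 602 higher and 523 lower, with 6 members higher and 1 lower. FST had a log2 change of -1.52 on day 14 and 0.28 on day 30 (difference 1.80 ± 0.49, adjusted p = 0.0212). That of GREM1 was -0.57 and 0.86 (difference 1.43 ± 0.37, adjusted p = 0.0178), and that of BMP5 -0.09 and 1.27 (difference 1.35 ± 0.34, adjusted p = 0.0144). TGFBR3 changed by -1.84 and -0.75 (difference 1.10 ± 0.32, adjusted p = 0.0325). SMURF1 changed by -1.23 and -0.50 (difference 0.73 ± 0.21, adjusted p = 0.0278), so that both falls were smaller on day 30. BMPER went the other way, from 0.41 to -0.73 (difference -1.14 ± 0.25, adjusted p = 0.00649). None of the 6 kept its call when control day 14 was 1 sample (0 members called by limma, 6 at an unadjusted p below 0.05) and 1 member was called without the 4 mixture-like libraries. The TGFBR3 difference was lost without any 1 of 10 libraries (control day 14 replicates 1 to 3, graft day 14 replicates 2 to 4, control day 30 replicates 1, 2 and 4, graft day 30 replicate 1, adjusted p = 0.0520 to 0.0633). The SMURF1 difference was lost without any 1 of 6 libraries (control day 14 replicates 1, 3 and 4, graft day 14 replicate 4, control day 30 replicate 2, graft day 30 replicate 3, adjusted p = 0.0507 to 0.0595). Over all alternatives the adjusted p ran over 5.11e-05 to 0.659 for TGFBR3 and 0.0142 to 0.478 for SMURF1.

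Between the graft groups themselves, 11 of the 39 members were called higher on day 30 than on day 14 and none lower (limma; 1 was lower at an unadjusted p below 0.05). Of all genes 8.01% were called higher and 8.31% lower, 693 and 719 genes. That even split depends on the scaling: TPM scaling, which moved the median log2 change of all genes from -0.04 to 0.13, gave 750 genes higher and 78 lower, and 13 members higher and none lower. The 11 members called comprised 5 ligands (BMP6, BMP2, BMP5, GDF7 and BMP3), 3 receptors (TGFBR3, ACVRL1 and ACVR1), the inhibitors SKIL and SMURF1, and the antagonist FST. Without overlap, 10 members were higher and none lower, against 7.29% and 8.46% of all genes. These 10 were CHRDL1, which was not called, and the members called other than BMP3 and ACVR1, whose groups overlapped. BMP6 rose from 0.53, 1.09, 0.84 and 1.42 FPKM on day 14 to 4.36, 3.59, 4.45 and 3.41 FPKM on day 30 (log2 change 1.34, SE 0.18, adjusted p = 0.00012). BMP2 rose from 5.82, 6.07, 4.01 and 3.22 FPKM to 9.30, 9.01, 13.0 and 10.1 FPKM (log2 change 0.99, SE 0.18, adjusted p = 0.00149), and each graft of day 30 held more than any graft of day 14. FST rose from between 0 and 1.17 FPKM to between 2.56 and 4.14 FPKM (log2 change 1.50, SE 0.34, adjusted p = 0.00674). GDF7 rose from between 0.05 and 0.39 FPKM to between 1.19 and 2.64 FPKM (log2 change 1.22 ± 0.25, adjusted p = 0.00285). TGFBR3 rose from between 1.73 and 4.65 FPKM to between 4.91 and 10.8 FPKM (log2 change 1.05 ± 0.23, adjusted p = 0.0049). BAMBI, at 2.10 to 6.25 FPKM on day 14 and 4.56 to 14.1 FPKM on day 30, did not pass (log2 change 0.78 ± 0.28, adjusted p = 0.0668). The opposite arteries also moved upward for BMP6, BMP2 and GDF7 (log2 change 1.00, 0.52 and 0.65, adjusted p = 0.00181, 0.0764 and 0.105, limma). For these genes the difference of the graft effect between the days did not pass (0.34, 0.47 and 0.57, adjusted p = 0.418, 0.242 and 0.3015). Of the 11 members called, only FST, TGFBR3, SMURF1 and BMP5 passed the test of that difference. Of the 7 smooth muscle markers tested, 6 were higher in graft day 30 than in graft day 14. So were 3 of the 8 endothelial and 3 of the 8 fibroblast and adventitia markers tested, while 4 of the 5 cell cycle genes tested were lower. The part of these markers in the rises was not tested.

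The count of 11 rested on the libraries used: it was 8 with control day 14 as 1 sample, 6 without the 4 mixture-like libraries, 5 with only the graft groups in the fit, 7 without graft day 14 replicate 4, and 1 (BMP6) with control day 14 as 1 sample and without the 4 libraries. BMP3 was lost without graft day 14 replicate 3 or 4 or graft day 30 replicate 3 or 4 (adjusted p = 0.0916, 0.0865, 0.0917 and 0.0592). ACVR1 was lost without graft day 14 replicate 3 or 4 or graft day 30 replicate 1 (0.0654, 0.0598 and 0.0612). ACVRL1 was lost without graft day 14 replicate 3 or 4 (0.0737 and 0.0733) or graft day 30 replicate 1, 3 or 4 (0.0578, 0.0518 and 0.0515). SMURF1 was lost without any 1 of 11 libraries (control day 14 replicates 1, 3 and 4, graft day 14 replicates 1, 2 and 4, control day 30 replicate 2, graft day 30 replicates 2 and 3, vein replicates 1 and 3, adjusted p = 0.0505 to 0.127). Over all alternatives the adjusted p ran over 1.31e-07 to 0.355 for BMP3, 1.14e-07 to 0.333 for ACVR1, 7.52e-07 to 0.318 for ACVRL1 and 0.0298 to 0.205 for SMURF1.

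The opposite, unoperated arteries also differed between the days, for 5 of the 39 members, 3 higher and 2 lower on day 30. Of all genes 10.7% differed, 6.28% higher and 4.45% lower. Without overlap, 6 members were higher and 2 lower, against 12.8% and 10.0% of all genes. BMPER was at 1.82, 2.45, 1.96 and 1.67 FPKM on day 14 and 8.83, 7.90, 9.42 and 5.31 FPKM on day 30, with no overlap (log2 change 1.56, SE 0.18, adjusted p = 2.79e-05). BMP6 was at 2.22, 1.84, 2.13 and 2.13 FPKM on day 14 and 8.11, 4.78, 3.51 and 5.08 FPKM on day 30, every library higher than on day 14 (log2 change 1.00, SE 0.18, adjusted p = 0.00181). TGFB3 rose from between 34.4 and 40.1 FPKM to between 54.4 and 87.2 FPKM (log2 change 0.74, SE 0.21, adjusted p = 0.0272). GREM1 fell from between 2.57 and 3.44 FPKM to between 0.45 and 1.95 FPKM (log2 change -0.92, SE 0.26, adjusted p = 0.0319). BMPR1A fell from between 34.2 and 35.6 FPKM to between 23.1 and 29.8 FPKM (log2 change -0.43, SE 0.12, adjusted p = 0.0265). The graft changes of BMP6, GREM1, BMPER, TGFB3 and BMPR1A on the 2 days are therefore measured against controls that differed themselves. For BMPR1A the graft means were 12.7 FPKM on day 14 and 12.5 FPKM on day 30, and the control means 35.0 and 25.9 FPKM.

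With control day 14 as 1 sample only BMPER was called among the members, and limma called none with control day 14 as 1 sample and without the 4 mixture-like libraries (2 at an unadjusted p below 0.05). Without the 4 mixture-like libraries 2 were called, both higher. TPM scaling gave 6 members higher and 1 lower, but it also moved the split over all genes from 544 higher and 385 lower to 846 higher and 137 lower, and the median log2 change of all genes from 0.05 to 0.25. The median-of-ratios factor gave 513 genes higher and 553 lower, with 3 members higher and 2 lower. Leaving out control day 14 replicate 1, 2 or 4 left 2 calls, and leaving out control day 14 replicate 3 or control day 30 replicate 1 or 2 left 3. TGFB3 was lost without control day 14 replicate 1, 2 or 4 or control day 30 replicate 1 (adjusted p = 0.0592, 0.0721, 0.0677 and 0.0850, range 0.000701 to 1). GREM1 was lost without any 1 of 7 of the 8 control libraries, all but control day 30 replicate 3 (adjusted p = 0.0581 to 0.0915, range 0.000533 to 1). BMPR1A was lost without any control day 14 library or control day 30 replicate 2 or 3 (0.0543 to 0.0867, range 4.30e-05 to 1).

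Unoperated vein and the opposite arteries of both days differed in many members of the family. The test called 20 of the 39 members, 9 higher and 11 lower in vein, against 37.1% of all genes, 25.2% higher and 12.0% lower. Without overlap, 6 members were higher and 9 lower, against 16.2% and 7.96% of all genes. With control day 14 as 1 sample it called 6 higher and 8 lower, and without the 4 mixture-like libraries also 6 higher and 8 lower. The median-of-ratios factor changed the split over all genes from 2178 higher and 1036 lower to 1617 higher and 1527 lower, with 7 members higher and 12 lower. FST was at 38.0, 11.5, 30.5 and 29.6 FPKM in vein, and no control library of either day exceeded 4.98 FPKM (log2 change 2.71, SE 0.30, adjusted p = 1.27e-06). BMP6 was at 24.2, 31.9, 22.4 and 24.9 FPKM in vein against 1.84 to 2.22 and 3.51 to 8.11 FPKM in the controls (log2 change 2.61, SE 0.16, adjusted p = 7.20e-10). Vein libraries of both genes were far above all arteries, grafts included. GREM1 was at 12.8, 5.89, 10.03 and 10.1 FPKM in vein and at most 3.44 FPKM in any control (log2 change 1.88, SE 0.23, adjusted p = 4.36e-06). CHRDL1 reached 4.68, 2.10, 4.24 and 4.45 FPKM in vein (log2 change 1.47 ± 0.22, adjusted p = 3.86e-05). GDF7 reached 13.6, 4.29, 9.36 and 8.28 FPKM in vein, where replicate 2 lay just under the highest control of 4.37 FPKM (log2 change 1.62 ± 0.21, adjusted p = 1.04e-05). BMP4 held 14.4, 6.50, 14.1 and 14.0 FPKM in vein (log2 change 1.51 ± 0.45, adjusted p = 0.0136), and lost its call with a pseudocount of 0.1 (adjusted p = 0.139, range 0.000253 to 0.243).

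Lower in vein were the 4 inhibitors BAMBI, SKIL, SMURF1 and SMURF2. BAMBI was at 13.8, 27.1, 14.4 and 18.0 FPKM in vein, where the lowest library overlapped the highest graft and every control held 86.8 FPKM or more (log2 change -2.49, SE 0.24, adjusted p = 3.38e-07). SKIL was at 10.7, 12.2, 10.2 and 10.9 FPKM (log2 change -1.06, SE 0.14, adjusted p = 9.27e-06) and SMURF1 at 2.98, 2.04, 2.61 and 3.85 FPKM (log2 change -1.23, SE 0.13, adjusted p = 6.03e-07). SMURF2 was at 4.27, 1.88, 2.43 and 2.87 FPKM in vein and at 4.91 FPKM or more in the controls (log2 change -1.10, SE 0.25, adjusted p = 0.00192). Of the ligands, BMP3 was at 0.76, 0.17, 0.55 and 0.53 FPKM in vein (log2 change -1.95 ± 0.16, adjusted p = 3.34e-08). BMP3 reached 1 FPKM in the 8 controls and in 2 other libraries only. It passed the filter only through the controls, where it is high, so this call is given as a description. BMP5 was at 0.06, 0, 0.03 and 0 FPKM in vein (log2 change -1.02 ± 0.21, adjusted p = 0.000873), with 2 vein libraries listed at 0. Smaller falls were called for SMAD4 (-0.59 ± 0.16, adjusted p = 0.00803), TGFB1I1 (-0.54 ± 0.09, adjusted p = 0.000177), CHRD (-0.90 ± 0.21, adjusted p = 0.00238), TGFB3 (-0.48 ± 0.18, adjusted p = 0.042) and ACVR1 (-0.27 ± 0.09, adjusted p = 0.0314).

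Receptor differences in vein ran in the same direction as in the graft for TGFBR2 and ACVRL1 and in the opposite direction for TGFBR3. TGFBR2 was at 53.6, 39.8, 45.8 and 48.4 FPKM in vein (log2 change 0.36 ± 0.11, adjusted p = 0.0185), ACVRL1 at 5.27, 7.93, 4.72 and 5.13 FPKM (0.66 ± 0.15, adjusted p = 0.00241) and TGFBR3 at 22.2, 17.6, 17.4 and 19 FPKM (0.67 ± 0.20, adjusted p = 0.0126). The comparisons share control libraries, and their values are set side by side without a test between them. Some of the smaller vein calls rest on single libraries: TGFBR2 was lost without vein replicate 1 or 4 (adjusted p = 0.0795 and 0.0536), and under the median-of-ratios factor (0.250, range 0.000515 to 0.261). TGFBR3 was lost under that factor (adjusted p = 0.0614), with control day 14 as 1 sample (0.0865) and without the 4 mixture-like libraries (0.0714, range 0.00015 to 0.255), so its opposite direction rests on a call that those alternatives end. The last 2 of these alternatives also ended the vein calls of TGFBR2, ACVR1, SMAD4, BMP4 and TGFB3, and with both changes together those of ACVRL1, CHRD and SMURF2 were lost too (adjusted p = 0.120, 0.0848 and 0.0781, ranges 5.73e-05 to 0.12, 0.000185 to 0.0848 and 1.91e-05 to 0.0781). ACVR1 was lost without control day 14 replicate 4, control day 30 replicate 1 or vein replicate 1 or 3 (0.0523 to 0.137, range 0.00273 to 0.241). TGFB3 was lost without any control day 14 library, control day 30 replicate 1 or vein replicate 2, 3 or 4 (0.0507 to 0.134, range 0.00873 to 0.267). In vein 4 of the 7 smooth muscle markers tested were lower and 7 of the 8 endothelial markers tested higher than in the controls. Of the 8 fibroblast and adventitia markers tested 6 were higher and 2 lower, and 4 of the 5 cell cycle genes tested were higher. The part of these markers in the differences was not tested.

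**Figure D5:**
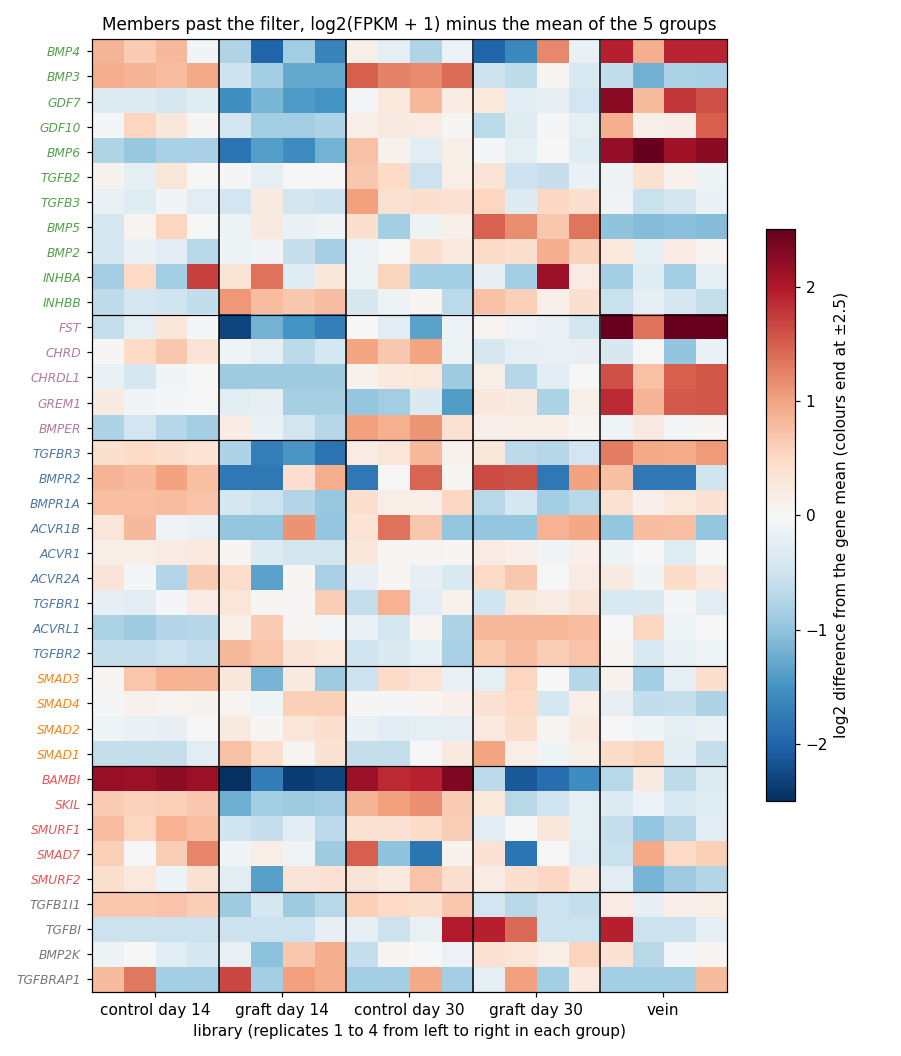
A total of 38 of the 39 members tested (rows, grouped by role) in each of the 20 libraries (columns), as log2(FPKM + 1) minus the mean of the 5 group means, with colours that end at 2.5 in either direction. BAMBI is low in grafts and vein, and FST, BMP6, GDF7 and GREM1 are high in vein.

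The remaining matched genes gave no call in the graft. BMP2K, a kinase induced by BMP2, TGFBI, a matrix protein induced by TGF-beta, and TGFBRAP1, a protein that binds TGF-beta receptors, passed in no comparison, and TGFBI and TGFBRAP1 were listed at 0 in many libraries. The 15 genes left did not reach the filter: the ligands BMP10, BMP15, GDF2, GDF3, GDF5, GDF6, GDF9, GDF11, INHBC and INHBE, the receptors ACVR1C and BMPR1B, SMAD5, SMAD9, and BMP1, a procollagen protease and not a ligand. SMAD5, BMP1 and GDF3 were listed at 0 in all 20 libraries. A total of 13 members that passed the filter were listed at 0 in at least 1 library. SMAD4, BMPER, SMURF1 and BMP1 were summed over more than 1 transcript. All other values rest on 1 transcript of the deposited table.

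Genes that store and release TGF-beta changed in both directions. Of the 10 latency and activation genes tested, 5 were higher and 3 lower on day 14, against 36.5% and 17.0% of all genes. On day 30, 5 were higher and 1 lower, against 26.0% and 11.6% of all genes. NRROS, which tethers latent TGF-beta on macrophages and microglia, rose from 0.578 ± 0.171 to 19.3 ± 7.19 FPKM on day 14 (mean ± SD, n = 4, log2 change 3.61 ± 0.25, adjusted p = 1.96e-09, limma). It was at 10.3 ± 2.72 FPKM in graft day 30 (log2 change 2.74 ± 0.25, adjusted p = 1.39e-07). LRRC32 (GARP), its counterpart on regulatory T cells and endothelium, changed by 1.47 ± 0.25, adjusted p = 9.51e-05 on day 14. FBN2, a microfibril protein, rose by 1.91 ± 0.18, adjusted p = 1.15e-07, and LTBP2, a latent TGF-beta binding protein, fell from 5.54 ± 0.511 to 0.627 ± 0.497 FPKM (-2.06 ± 0.22, adjusted p = 4.02e-07). THBS1, which can activate latent TGF-beta, went from 6.11 ± 0.445 to 56.1 ± 13.1 FPKM on day 14 (2.98 ± 0.63, adjusted p = 0.000609), but also stood at 88.7 ± 93.4 FPKM in control day 30. Macrophage markers rose with NRROS (4 of the 5 tested on each day), and their part in its rise was not tested.

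Co-receptors and other binders split as well, with 2 of 9 tested higher and 4 lower on day 14 and 3 higher and 2 lower on day 30. The shares of all genes were 36.5% higher and 17.0% lower on day 14, and 26.0% and 11.6% on day 30. ENG (endoglin), the endothelial co-receptor of ACVRL1, was at 18.5 ± 1.11 FPKM in control day 14 and 65.4 ± 19.9 FPKM in graft day 14. It rose on day 14 (log2 change 1.72 ± 0.17, adjusted p = 1.65e-07), on day 30 (1.99 ± 0.17, adjusted p = 7.54e-08) and in vein against the controls (2.94 ± 0.15, adjusted p = 6.41e-11). SOST (sclerostin), a secreted protein known mainly from bone, was at 18.1 ± 0.896 FPKM in control day 14 and 0.0750 ± 0.124 FPKM in graft day 14 (log2 change -4.15 ± 0.24, adjusted p = 2.29e-10). It was low in vein too (-3.48 ± 0.21, adjusted p = 5.87e-10), and whether it acts on this pathway in these vessels was not tested. CRIM1, a membrane protein that binds BMPs, fell on both days (-2.42 ± 0.31, adjusted p = 3.64e-06 on day 14 and -0.82 ± 0.31, adjusted p = 0.047 on day 30). Of the 11 partners tested in the cytoplasm and nucleus, 4 were higher and none lower on day 14, among them STRAP (0.54 ± 0.12, adjusted p = 0.00107), and 2 were higher and none lower on day 30, against 36.5% and 26.0% of all genes higher. Their median log2 change was 0.43 on day 14 and 0.18 on day 30, where all genes had 0.26 and 0.18.

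Genes known as targets of the pathway did not move in one direction. Their list shares LTBP2 with the latency list, CILP with the binders and COL1A1 with the fibroblast and adventitia markers. DCN is listed among both the binders and those markers, so the lists are not separate sets. Of the 15 targets tested, 4 were higher and 6 lower on day 14, against 36.5% and 17.0% of all genes. On day 30, 5 were higher and 2 lower, against 26.0% and 11.6%, so the day 30 counts lay near the shares of all genes. COL1A1, a chain of type I collagen, rose from 15.2 ± 2.15 to 104 ± 13.4 FPKM on day 14 (log2 change 2.70 ± 0.21, adjusted p = 1.10e-08), and FN1, fibronectin, from 35.7 ± 1.57 to 212 ± 114 FPKM (2.36 ± 0.29, adjusted p = 1.98e-06). ATOH8, a transcription factor that BMPs induce, fell on day 14 (-1.40 ± 0.18, adjusted p = 3.63e-06) and did not pass on day 30 (0.16 ± 0.18, adjusted p = 0.524). ID1 and ID3, which BMP SMADs switch on directly, did not pass on either day. ID1 was at 50.4 ± 3.16 FPKM in control day 14 and 35.4 ± 18.1 FPKM in graft day 14 (-0.62 ± 0.32, adjusted p = 0.109), and ID3 at 81.0 ± 11.3 and 128 ± 21.3 FPKM (0.65 ± 0.30, adjusted p = 0.0785). On day 30 the log2 changes were -0.50 ± 0.32, adjusted p = 0.234 for ID1 and 0.71 ± 0.30, adjusted p = 0.0735 for ID3.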

How the data were processed

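Total RNA, extracted with TRIzol per the labels, was sequenced in pairs on a NovaSeq X Plus. The submitters' processing notes name fastp, HISAT2, StringTie, RSEM and DESeq2; versions, their order and the genome build are not given in the sources used here, so no coordinates are printed. The authors deposited FPKM per transcript (24964 transcripts) and no counts, so read numbers, depth and counting errors are unknown. FPKM summed to between 327806 and 671582 per library.

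Transcripts were summed per gene (23669). The 8657 genes that reached 1 FPKM in 4 or more libraries were fitted with limma 3.58.1 in R 4.3.3 on log2(FPKM + 1), with 1 mean per group over 20 libraries and trended moderated variances. Tests are two-sided, adjusted by Benjamini-Hochberg over all genes, with a threshold of 0.05. Log2 changes understate changes of low genes. Errors are SE of limma for log2 changes and SD for FPKM. On simulated data with 8657 genes for grafts against controls on day 14, 100 genes were changed by 1 and 100 by 2 (log2). Of these, 54% and 83% were recovered, and 6 of 143 calls were false. All groups were simulated with the same mean and spread per gene. In the data the spread differed between groups and far more genes were called, so these shares do not carry over to the results.

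The members, gene lists and alternatives were chosen with earlier results of these data known. Values in each library are given for members with the largest called changes (up to 8 per comparison, with a mean of 5 FPKM or more in one group) and the most abundant of each role, and for further members chosen after their values were seen. Up to 4 called genes are named per pathway list and comparison, and THBS1 is given on day 14 in addition. Alternatives were other pseudocounts, filters, scalings, groups in the fit, library weights, a replicate block and left-out libraries. Some genes, 1 of the tested members among them, are counted but not reported here by name.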

Additional observations from a re-analysis of the deposited data

Results flagged for a closer look

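Sets of 4 libraries (a member in a group) were checked for a single outlying library, and 7 were flagged. Only members with a mean of 5 FPKM or more in a group could be flagged. The 193 sets checked also include scarcer members, so the 7 flags give no rate of outlying libraries. TGFB3 was high at 49.99 FPKM in graft day 14 replicate 2 (the others at 29.30 to 30.50) and at 87.21 FPKM in control day 30 replicate 1 (the others at 54.39 to 56.58). ACVR1 was high at 24.80 FPKM in control day 30 replicate 1, where the others held 20.92 to 21.17. TGFBR2 was at 35.94 FPKM in control day 14 replicate 3, in the evenest group, against 34.49 to 34.72 in the others. Low libraries were GREM1 at 1.19 FPKM in graft day 30 replicate 3 (the others at 3.24 to 3.63), BMP4 at 6.50 FPKM in vein replicate 2 (13.97 to 14.41) and SKIL at 5.31 FPKM in graft day 14 replicate 1 (6.92 to 7.12).

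The graft effect differed between day 30 and day 14, by limma's test of the difference, for 6 members. The log2 difference was 1.80 for FST, 1.43 for GREM1, 1.35 for BMP5, 1.10 for TGFBR3, 0.73 for SMURF1 and -1.14 for BMPER. For GREM1 and BMPER, the control arteries of the 2 days also differed, by -0.92 and 1.56 on the log2 scale.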

How the results depend on the processing

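No member call reversed under the 34 alternatives run. Calls kept under all alternatives in which the gene was tested were 9 of 21 on day 14 (BAMBI, SKIL, SMURF1, TGFB1I1, TGFBR2, TGFBR3, BMPR1A, BMP3 and INHBB) and 8 of 15 on day 30 (BAMBI, SKIL, TGFB1I1, TGFBR2, ACVRL1, BMPR1A, BMP3 and BMP5). Stricter filters left some genes out, so INHBB, FST and GDF7 were tested under 33 alternatives and BMP5 and CHRDL1 under 32. INHBB passed the filter only through graft libraries and BMP3 only through control libraries, where each is high. Also kept were 11 of 20 for vein, 1 of 11 between the graft groups (BMP6), none of 6 for the difference between days and none of 5 between the control groups. With control day 14 as 1 sample, the members called were 10 on day 14, 0 for the difference between days (6 at an unadjusted p below 0.05) and 1 between the control groups. Without the 4 mixture-like libraries they were 1 for the difference, 6 between the grafts and 2 between the controls. With both changes they were 9 on day 14, 11 for vein, 0 for the difference (4 at an unadjusted p below 0.05), 1 between the grafts and 0 between the controls (2 at an unadjusted p below 0.05). These alternatives use fewer samples. Library weights gave 18 for the difference, 24 between the grafts and 15 between the controls; the cause was not tested, and the weights did not fully converge. Only the groups compared gave 5 between the grafts. Leaving out 1 library at a time gave 19 to 22 members on day 14, 14 to 17 on day 30, 4 to 7 for the difference, 7 to 13 between the grafts, 2 to 6 between the controls and 18 to 20 for vein. A replicate block gave 22, 15, 7, 11, 5 and 19 in the order day 14, day 30, difference, grafts, controls and vein; libraries with equal numbers did not deviate together (correlations of deviations -0.18 to 0.13), and whether they come from 1 animal is not given in the labels. Scaling moved the split of all calls, for example on day 30 from 2253 higher and 1000 lower to 1719 and 1451 with median-of-ratios factors. The FPKM table limits precision at low levels, where a listed 0 may be a failed estimate.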

Other observations

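SMAD6 and NOG, an inhibitory SMAD and a trap for BMPs, carry no symbol in the deposited table and were named through their NCBI gene numbers, so they lie outside the set described. SMAD6 was at 27.6, 27.5, 28.4 and 23.3 FPKM in control day 14, 15.7, 15.4, 13.1 and 12.1 in graft day 14, 28.5, 17.8, 17.5 and 19.7 in control day 30, 28.3, 19.4, 21.6 and 19.8 in graft day 30 and 27.7, 37.5, 31.6 and 27.8 in vein. Its grafts of day 14 were below all their controls (log2 change -0.88 ± 0.15, adjusted p = 0.000105, limma), its grafts of day 30 overlapped theirs (0.10 ± 0.15, adjusted p = 0.653), and the difference between the days passed (0.98 ± 0.22, adjusted p = 0.00702). NOG was at 3.51, 3.41, 2.58 and 3.62 FPKM in control day 14 and 4.94, 2.18, 0.72 and 0.36 FPKM in graft day 14, and it passed in no comparison (adjusted p = 0.112 on day 14 and 0.115 on day 30).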
